A study of Mus musculus with 16 samples.

Results

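The histone genes were taken from a table of raw RNA-seq counts in 16 mouse osteosarcomas, 8 called KO and 8 called WT for *Arid1a*. A gene was included when the table gave it the biotype protein_coding and its symbol began with Hist and a cluster number from 1 to 4 followed by h, with H1f, H2a or H2b, or with H3 or H4 followed by c or f. Of 25054 genes in the table, 73 met this rule. They comprised 62 replication-dependent genes, 10 replacement genes and *H1f6*, a linker histone of the main cluster whose product is known from the testis. Another 11 symbols matched the letters but had other biotypes, mostly pseudogenes, and were not included. The mice of both groups had the genotype OsxCreERT2+/-;p53fl/fl;Rb1fl/fl, and the KO mice carried Arid1afl/fl in addition, so conditional loss of *Trp53* and *Rb1* was shared by all the tumors. The Cre is driven by the *Osterix* promoter, which acts in cells of the bone-forming lineage, and is activated by tamoxifen, given at 400 µg per gram of body weight at 1 month of age. The mice were older than 6 months and of both sexes, with no sex given for a single tumor. The 8 KO tumors came from 8 mice, and the 8 WT tumors came from 4 mice by their animal codes, of which N42 gave 4, N43 gave 2, and N215 and N25 gave 1 each.

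Nucleosomes are built from DNA and the core histones H2A, H2B, H3 and H4, and linker histone H1 binds where the DNA enters and leaves. Replication-dependent histone genes lie in clusters, mostly lack introns, and are transcribed in S phase to package newly copied DNA. Their mRNAs end in a stem-loop instead of a poly(A) tail, which the stem-loop binding protein recognizes. Replacement histones such as H3.3 and H2A.Z are made throughout the cell cycle, mostly from polyadenylated mRNAs, and are placed into chromatin outside replication. These libraries were depleted of ribosomal RNA rather than selected by poly(A), so both kinds of mRNA could be counted.

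Between 1109487 and 15059640 counts lay on genes in a KO tumor and between 7806160 and 16962329 in a WT tumor. Massa and Grilka, both KO, were the shallowest, and 3 counts equaled 6.69 and 4.03 CPM there (the count of a gene scaled to the TMM-normalized library size). The TMM factor, which multiplies the library size, was 0.409 in Massa, 0.414 in Grilka and 0.626 to 1.504 in the other tumors, so CPM of Massa and Grilka lie higher than their share of counts. Ribosomal RNA genes took 17.3% of the counts in Massa, 11.6% in Medusa, 23.8% in Grilka and 10.3% in Oregon, against at most 1.95% in WT. The count of *Arid1a* over its whole gene was 107 to 270 CPM in KO (median 179) and 125 to 236 CPM in WT (median 166), and this total cannot separate the floxed exons from the rest, so it does not check the labels. All 10 osteoblast markers exceeded 1 CPM in most tumors, but *Sp7* and *Bglap* were at 0 counts in Massa, *Dmp1* in Prince and *Bglap* in N215. Their summed level was 717 to 60954 CPM in KO and 2910 to 84108 CPM in WT.

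By GENCODE vM21, an annotation of GRCm38 (mm10), 51 of the 62 replication-dependent genes lie in the Hist1 cluster on chromosome 13, between positions 21715763 and 23764406. Another 8 lie in the Hist2 cluster on chromosome 3 (96219865 to 96270132), 2 in the Hist3 cluster and 1, *H4f16*, in the Hist4 cluster. The 3′ stem-loop was searched on the sense strand after the stop codon as the letters GGNNNTNTNNANNNCC with 6 pairing bases on each arm, G with T allowed. Of 49 replication-dependent genes with at least 16 annotated bases after the stop, 41 held it, against 186 of 21069 protein-coding genes of the annotation (0.88%). The remaining 13 replication-dependent genes have no annotated stretch long enough to search. The loop began 21 to 58 bases after the stop codon, with a median of 31. Of the replacement genes, *H2ax* held it and the other 9 did not. The stem-loops below are shown because they are the feature that separates the classes at the RNA level, with the 16 matching bases in capitals and the flanking bases in lower case.
*H1f2* (chr13:23739507-23739532, plus strand): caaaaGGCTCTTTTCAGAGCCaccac
*H2ac20* (chr3:96220413-96220438, minus strand): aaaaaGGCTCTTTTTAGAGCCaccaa
*H2bc3* (chr13:23747198-23747223, plus strand): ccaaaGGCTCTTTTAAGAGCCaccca
*H3c7* (chr13:23544927-23544952, plus strand): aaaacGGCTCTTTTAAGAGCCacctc
*H4c8* (chr13:23531453-23531478, plus strand): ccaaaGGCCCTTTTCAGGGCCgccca
*H4c2* (chr13:23757361-23757386, plus strand): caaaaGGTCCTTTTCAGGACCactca
*H4c14* (chr3:96262934-96262959, minus strand): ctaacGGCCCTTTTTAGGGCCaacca
*H2ax* (chr9:44335235-44335260, plus strand): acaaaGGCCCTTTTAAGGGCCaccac
The stem of *H1f2* was the most common, with the same 16 bases in 24 replication-dependent genes of the H1, H2A, H2B and H3 families. The H4 genes with a loop, 11 in number, had none of that form: 7 carried the stem-loop of *H4c8*, 2 that of *H4c2* and 2 that of *H4c14*. *H2ax* paired the stem of *H4c8* and *H4c14*, found in 9 of the 11 H4 genes, with a loop whose bases are those of *H3c7* and *H2bc3*.

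Promoter sequences of RefSeq (GRCm38.p6, from 250 bases before to 50 after the start) were matched for 59 of the 73 genes. The letters CCAAT, on either strand, occurred in 42 of 49 replication-dependent genes (85.7%), 6 of 9 replacement genes (66.7%) and 41.1% of all 27025 genes in that table. The replication-dependent genes without CCAAT were all of the H4 family, namely *H4c2*, *H4c6*, *H4c8*, *H4c9*, *H4c11*, *H4c12* and *H4f16*. Among the matched H4 genes only *H4c1*, *H4c3* and *H4c4* held it. TATAAA, also on either strand, occurred in 28 of the 49 (57.1%), 2 of the 9 (22.2%) and 15.7% of all genes. The 2 tested replication-dependent genes with the highest level per kb that held both letters on the sense strand within 120 bases of the start are shown as examples of this layout, with the motifs in capitals.
*H1f4* (chr13:23622559-23622678, minus strand): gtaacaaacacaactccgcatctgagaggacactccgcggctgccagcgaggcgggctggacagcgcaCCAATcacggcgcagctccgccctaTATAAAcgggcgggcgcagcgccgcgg
*H1f1* (chr13:23763548-23763667, plus strand): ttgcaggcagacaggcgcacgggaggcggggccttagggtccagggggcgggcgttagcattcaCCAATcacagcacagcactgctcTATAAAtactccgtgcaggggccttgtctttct
In both, CCAAT lies upstream of TATAAA. These matches describe letters in a window and not bound factors.

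The replication-dependent genes together took 436 to 2705 CPM in KO (median 1380) and 626 to 3841 CPM in WT (median 804). The highest tumor of all 16 was the right hind limb tumor of N215, a WT mouse, and the lowest was the KO tumor Montana. The WT tumors other than N215 lay between 626 and 1338 CPM. In KO the sum was 2705 CPM in Zelda, 2260 in Grilka, 1732 in Ohio and 1688 in Medusa, all above that range on this scale. Massa, with 1073 CPM, fell inside it, while Oregon (624.7 CPM), Prince (591 CPM) and Montana (436 CPM) fell below it. So the KO tumors lay on both sides of most WT tumors, and the groups overlapped. As a share of all counts, without the TMM factor, the WT tumors other than N215 (0.434%) lay between 0.0723% and 0.180%. Zelda (0.397%) and Ohio (0.234%) were above these, Medusa (0.164%) and Grilka (0.0928%) among them, and Prince (0.0473%), Massa (0.0434%), Oregon (0.0389%) and Montana (0.0342%) below. The places of Massa and Grilka thus depended on the scaling, in single genes too. Counting precision was lowest in Massa, where this sum rested on 481 counts, against 11387 or more in every WT tumor.

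**Figure D1:**
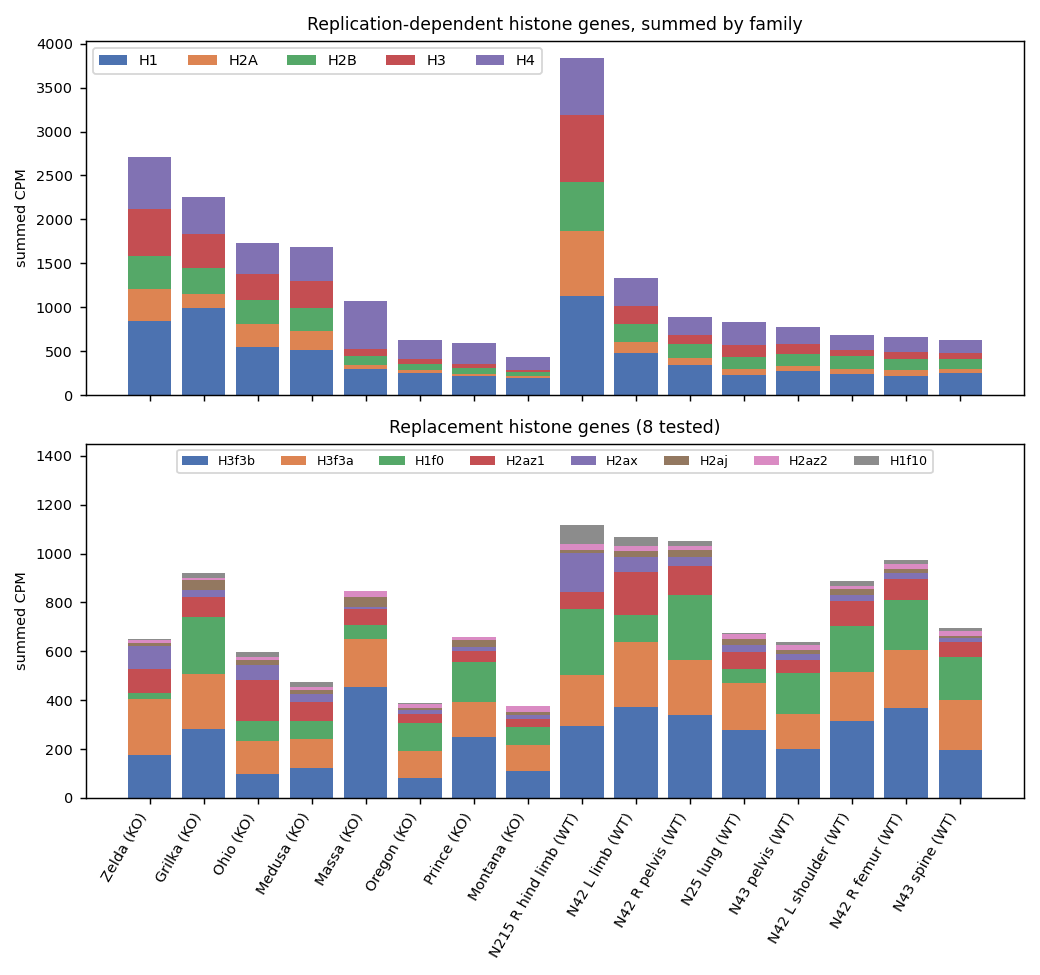
Summed CPM of the replication-dependent histone genes by family (top) and of the 8 tested replacement histone genes (bottom), for each KO and WT tumor, ordered within a group by the upper sum. The replication-dependent sum runs from 436 CPM in Montana to 3841 CPM in the N215 tumor.

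The 5 families did not vary to the same extent over the tumors. The H2A genes, 16 of them, summed to 17.3 CPM in Montana and 745 CPM in N215, a 42.9-fold range. The H3 sum ranged 28.4-fold, from 27.0 to 768 CPM, and the H2B sum 13.02-fold, from 42.3 to 551 CPM. The H1 sum, of the somatic linker histones *H1f1* to *H1f5*, ranged 5.68-fold, from 198 to 1126 CPM. The H4 sum had the narrowest range, 4.33-fold, from 151 to 652 CPM. As a result the mix of families differed between tumors. H4 took 50.7% of the replication-dependent counts in Massa (exact 95% binomial interval 46.2% to 55.3%, counting error only), 40.8% in Prince, 34.6% in Montana and 33.3% in Oregon. It took 18.8% to 22.8% in the other 4 KO tumors and 17.0% to 31.5% in WT. H2A went the other way, with 3.98% to 5.55% in Massa, Prince, Montana and Oregon, 7.19% to 14.6% in the other KO tumors and 7.45% to 19.4% in WT. These shares are given without a test.

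Levels of single genes were compared per kb of annotated exon, as CPM per kb averaged over the 16 tumors. Such levels depend on the annotated exon length, which ran from 312 to 7425 bases in replication-dependent genes. By mean CPM without that length, *H1f3* (76.0) was above *H1f1* (38.6), *H2bc4* (33.3) above *H2bc18* (27.1) and *H4c4* (59.3) above *H4c12* (18.6). Among the tested replication-dependent genes the highest level was 124 for *H2ac15*, followed by 112 for *H1f2* and 102 for *H4c8*. Without N215 *H2ac15* had 67.8, below *H1f2* (103) and *H4c8* (95.5), so its first place rested on that tumor. *H2bc18* led the H2B genes with 71.1 and *H3c7* the H3 genes with 55.1. The next in their families were *H1f4* (65.4) and *H1f1* (52.1) for H1, *Hist1h2an* (47.4) and *H2ac10* (30.5) for H2A, and *H2bc15* (41.4) and *H2bc8* (36.7) for H2B. *H3c13* (41.98) and *H3c3* (36.2) followed in H3, and *H4c12* (59.5) and *H4c6* (58.1) in H4. Neighbors in this order differ by less than their spread over tumors: *H2ac15*, the highest by its mean, was at 0 counts in Massa and at 378 CPM in N215. Among replacement genes *H3f3b* had 82.7 CPM per kb, *H1f0* 68.5, *H3f3a* 52.6 and *H2az1* 47.4.

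Many of these genes encode the same protein. Proteins were read from the annotated transcripts as the longest open frame ending at the annotated stop codon, whose start need not be the annotated one. So read, the 13 H4 genes encode 1 protein, the 11 H3 genes 3, the 16 H2A genes 8, the 17 H2B genes 11 and the 5 H1 genes 5. The third H3 frame, of *H3c15*, has 181 residues against 136 in *H3c2*. *Hist1h2bp* has 138 and *Hist1h2bq* and *Hist1h2br* 134, against 126 in *H2bc4*, so the H3 and H2B counts may be too high. *H3f3a* and *H3f3b* also encode 1 protein, histone H3.3. By this reading, 6 of the H3 genes share the protein of *H3c2* and 4 that of *H3c1*, variants known as H3.2 and H3.1, and *H3c15* is in neither group. The CPM of the first 6 was 3.01 to 10.8 times that of the other 4 in KO (median 3.97) and 3.01 to 3.70 times in WT (median 3.32). The value of 10.8 was in Prince, where the 4 genes summed to 3.82 CPM, and the remaining KO tumors reached at most 4.27. In the N215 tumor *H3c7* alone had 273 of the 589 CPM of the first 6.

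The order of the tumors by replication-dependent histones was set beside that of 25 proliferation genes, such as *Mki67*, *Pcna* and *Mcm2*. The mean log2 CPM of these genes was 5.64 in Zelda, 5.52 in Medusa, 5.41 in Ohio and 4.88 in Grilka, the 4 KO tumors with the most histone mRNA. It was 2.13 in Oregon, 1.59 in Prince, 1.43 in Montana and 1.16 in Massa. The WT tumors lay between 3.39 and 5.38, with N215 at 5.38 and the left limb tumor of N42, second among WT for histone mRNA, at 5.17. So the KO tumors again lay on both sides of most WT tumors, and the 6 tumors with the most replication-dependent histone mRNA were the 6 with the highest proliferation mean, in another order, on the CPM scale. Massa was the lowest of the 16 in proliferation genes and the 7th in histone CPM. As shares of all counts, the 5 tumors highest in histone mRNA (N215, Zelda, Ohio, N42 left limb and Medusa) were the 5 highest in the summed proliferation genes. On that scale Grilka was 9th in histone mRNA and 11th in proliferation genes, and Massa 14th and 16th. Depth, the same library and the same cells are shared by both measures, and no test was made.

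**Figure D2:**
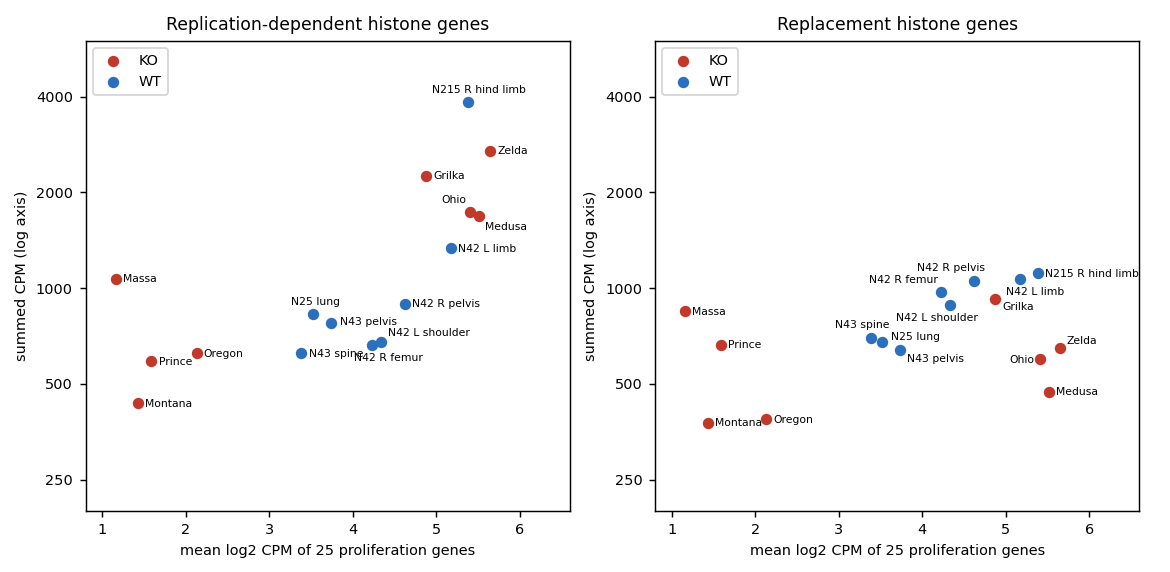
Summed CPM of the replication-dependent (left) and replacement (right) histone genes on a log axis against the mean log2 CPM of 25 proliferation genes, 1 point per tumor, KO red and WT blue. On the left the 6 tumors farthest to the right are the 6 highest, and Massa stands at 1073 CPM at the far left, on the TMM scale; on the right the sums stay between 378 and 1116 CPM.

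Of the 56 tested replication-dependent genes, 31 were highest in the N215 tumor and 10 in Zelda. The lowest tumor was Massa for 21, Montana for 20 and Prince for 7. In Massa 20 of the 56 were at 0 counts, which allows up to 6.69 CPM for each, so low levels there were not detectable. Without Massa and Grilka, among the 14 deeper tumors, N215 was highest for 36 genes and Zelda for 12, and Montana was lowest for 31 and Prince for 15. Some genes kept a higher level than others in the 4 tumors lowest in proliferation genes. *H4c4* had 136 CPM in Massa, 26.5 in Montana, 56.1 in Prince and 32.998 in Oregon, against 29.7 to 89.8 in WT. *H1f2* had 132, 161, 65.2 and 157 CPM in the same tumors, against 104 to 386 in WT. *H2ac15*, by contrast, had 0, 2.30, 1.83 and 7.55 CPM there, against 6.32 to 378 in WT.

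**Figure D3:**
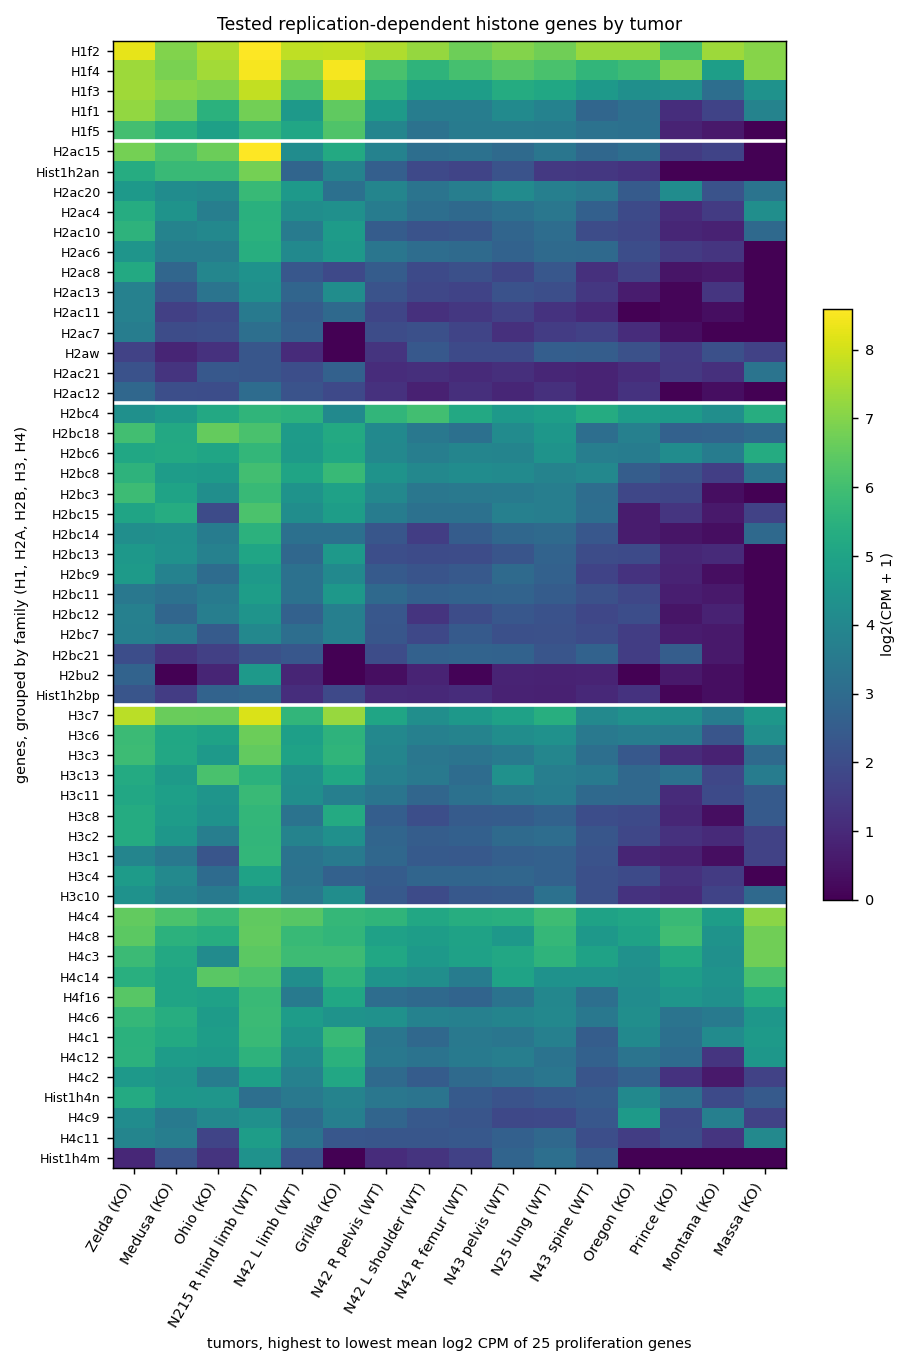
Log2(CPM + 1) of the 56 tested replication-dependent histone genes, in rows grouped by family, in the 16 tumors ordered by the mean of 25 proliferation genes. Most H2A, H2B and H3 genes are darkest in the 4 tumors at the right, where *H4c4* has 26.5 to 136 CPM and *H1f2* 65.2 to 161 CPM.

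Markers of other tissues were high in tumors at both ends of this order. Zelda, the KO tumor highest in both measures, held the highest KO sums of erythroid (1571 CPM), liver (1994 CPM) and lymphoid (1459 CPM) markers. Of these lists of 10 genes, 3 erythroid, 1 liver and 3 lymphoid markers exceeded 1 CPM in most tumors. *Hba-a1*, *Hba-a2*, *Apoa2*, *Ttr*, *Serpina1c*, *Fgb*, *Fga* and *Cyp3a11* were at 0 counts in most. The sum of 10 skeletal muscle markers was 106459 CPM in Montana and 160055 CPM in Oregon, against 3.32 to 244 CPM in the other KO tumors and 9.49 to 8816 CPM in WT. All 10 of these markers exceeded 1 CPM in most tumors. The sum of 10 salivary gland markers was 119697 CPM in Prince, 533 CPM or less in the other KO tumors and at most 44.5 CPM in WT, and 2 of the 10 exceeded 1 CPM in most tumors, with *Bpifa2*, *Prol1*, *Smr3a*, *Dcpp1*, *Dcpp2*, *Pip* and *Klk1* at 0 counts in most. The sum of 10 lung markers was 12321 CPM in Massa and 29048 CPM in the N25 tumor, which is labeled lung, and at most 80.0 CPM elsewhere, and 3 of the 10 exceeded 1 CPM in most tumors, with *Sftpc*, *Sftpd*, *Scgb1a1*, *Scgb3a2* and *Lamp3* at 0 counts in most. The part of these tissues in the histone levels was not tested. In bulk tumors, fewer cells in S phase and less histone mRNA per cell cannot be told apart.

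The KO and WT tumors were set against each other in edgeR (quasi-likelihood test, two-sided) over 15413 genes, with Benjamini-Hochberg adjustment over all of them and a threshold of 0.05. Of the 73 histone genes, 65 passed the filter on low counts, namely 56 replication-dependent genes, 8 replacement genes and *H1f6*. The 6 replication-dependent genes left out were *H2ac19*, *Hist1h2ao*, *Hist1h2ap*, *Hist1h2bq*, *Hist1h2br* and *H3c15*, and the replacement genes left out were *H2al3* and *H2ap*. None of the 65 was past the threshold in edgeR, against 4.01% of all genes tested. At an unadjusted p under 0.05 there were 5 of the 65, all replication-dependent, against 23% of all genes tested. With DESeq2, which called 12.5% of the genes, 3 histone genes were past its threshold, *Hist1h4n*, *Hist1h4m* and *H2bc4*. With the proliferation score as a covariate, when edgeR called 6.08% of the genes, *Hist1h4n* and *Hist1h4m* were past it. The log2 fold change, KO versus WT, was above 0 for 34 of the 56 replication-dependent genes and below 0 for 22, with a median of 0.12, beside a median of 0.10 over all genes tested. That median was 0.78 without the N215 tumor and −0.23 without Zelda, and was below 0 with counts summed per mouse (−0.21; 0.0625% of genes called) and in limma-voom (−0.46; 0.11% called), so no direction is given for the class. The median standard error of a replication-dependent gene was 0.66 on the log2 scale, against 0.42 for all genes tested.

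**Figure D4:**
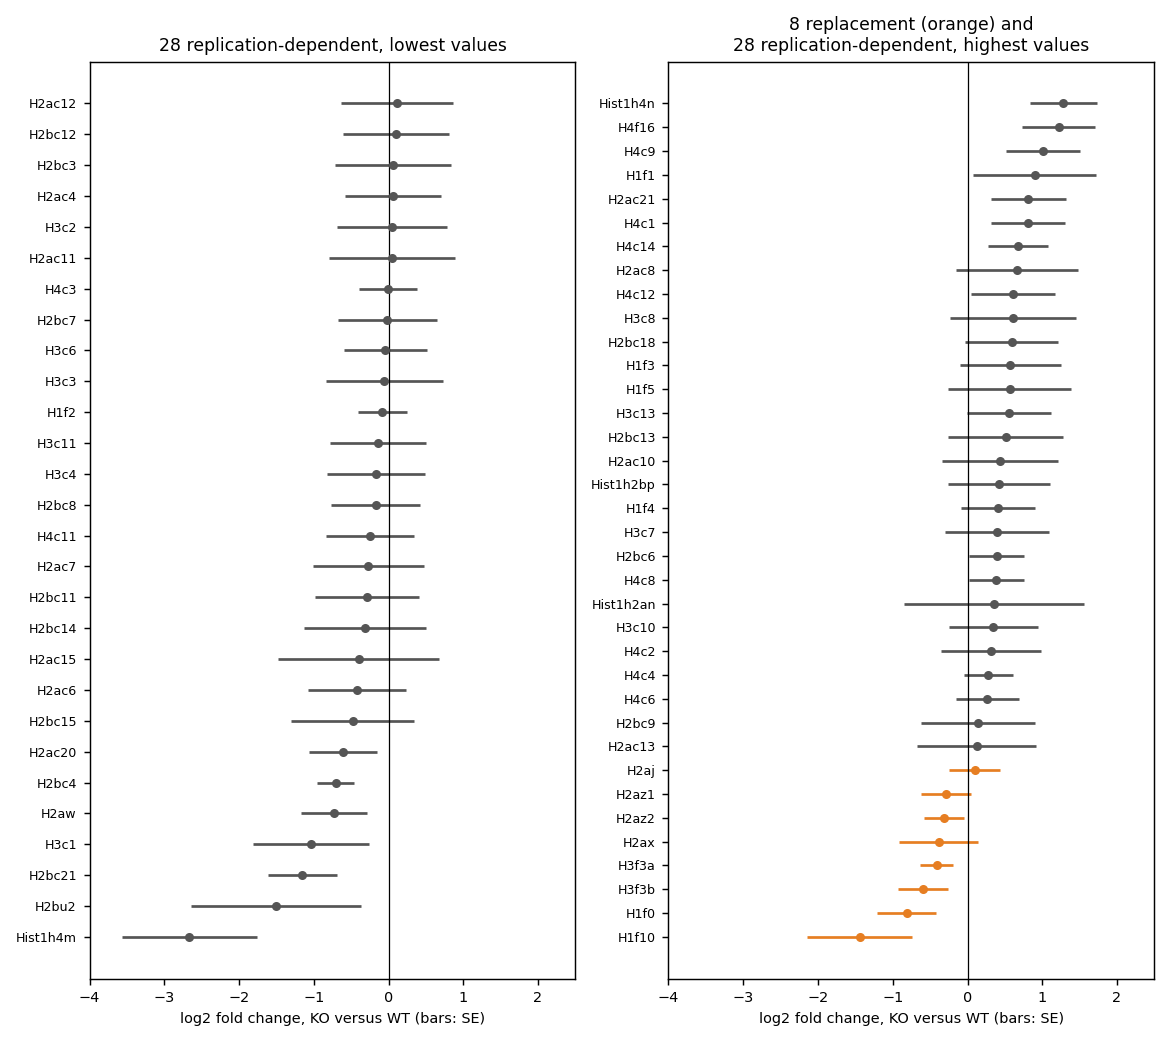
Log2 fold change, KO versus WT, with its standard error, for the 56 replication-dependent (gray) and 8 replacement (orange) histone genes tested in 8 KO and 8 WT tumors. Values run from −2.66 for *Hist1h4m* to 1.28 for *Hist1h4n*, and 7 of the 8 replacement genes lie below 0.

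By family the median log2 fold change was 0.56 for H1, 0.06 for H2A, −0.02 for H2B, 0.00 for H3 and 0.38 for H4, where 10 of 13 genes were above 0. Of the 5 genes above 0 with the smallest p, each an H4 gene, *Hist1h4n* had the largest value. It had 2.81 to 37.2 CPM in KO (median 14.7) and 3.61 to 10.05 CPM in WT (median 6.25). In KO 5 tumors lay above every WT tumor, Massa and Prince lay within the WT range and Montana below it. The log2 fold change was 1.28 ± 0.45 (SE) at an adjusted p of 0.104 in edgeR. *H4f16*, which lies outside the large clusters, had 17.1 to 81.9 CPM in KO (median 30.6) and 5.79 to 55.8 CPM in WT (median 8.26). The groups overlapped, and 0.415% of all genes tested had groups that did not. With N215 set aside the KO tumors of *H4f16* were all above the WT tumors, and the share of all genes that separate in this way was not computed. The log2 fold change was 1.22 ± 0.49 (SE) at an adjusted p of 0.150 in edgeR, and without N215, when edgeR called 5.83% of all genes tested, it was 2.002 with an adjusted p of 0.00660. The other H4 genes in this group were *H4c9* (log2 fold change 1.01), *H4c14* (0.68) and *H4c1* (0.81), with edgeR adjusted p-values of 0.235, 0.315 and 0.342. *H4c1* was also past the threshold without N215 (log2 fold change 1.47).

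The gene with the smallest p was also an H4 gene and was lower in KO. *Hist1h4m* had 0 counts in 5 of the 8 KO tumors and at most 3.59 CPM in the others, and 1.12 to 19.9 CPM in WT (median 4.02). Massa and Grilka could hold up to 6.69 and 4.03 CPM at 0 counts, so 2 of those zeros carry little weight. The log2 fold change was −2.66 ± 0.90 (SE) at an adjusted p of 0.0919 in edgeR. *Hist1h4m* and *Hist1h4n* are near copies: of the windows of 50 bases along their exons, 89.8% and 85.6% also occur in another annotated gene, and each shares most with the other. Summed, they had 2.81 to 38.2 CPM in KO (median 14.7) and 6.59 to 27.7 CPM in WT (median 10.49), with overlap, a sum formed after the values of both were seen. A read of 50 bases in such a window cannot be placed in either gene alone, so the split of the counts between them is uncertain.

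The other genes below 0 with the smallest p included 2 H2B genes without a stem-loop in their longest annotated 3′ end. *H2bc4* had 16.1 to 40.1 CPM in KO (median 24.3) and 23.5 to 62.5 CPM in WT (median 41.9). In KO 3 tumors (Montana, Grilka and Zelda) were below every WT tumor and the other 5 lay inside the WT range, and its log2 fold change was −0.71 ± 0.25 (SE) at an adjusted p of 0.107 in edgeR. *H2bc21* had 0 to 4.73 CPM in KO (median 1.72) and 2.97 to 5.74 CPM in WT (median 4.70), and Medusa, Montana, Ohio and Oregon were below every WT tumor. Massa and Grilka had 0 counts, which allows up to 6.69 and 4.03 CPM there, so they cannot be placed. Its log2 fold change was −1.15 ± 0.46 (SE) at an adjusted p of 0.147 in edgeR, and it shares no window of 50 bases with another gene. *H2aw* (log2 fold change −0.73) and *H3c1* (−1.04) completed the group, with edgeR adjusted p-values of 0.338 and 0.444. Without N215 the value of *H3c1* was 0.04.

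Of the 3 replication-dependent genes with the highest CPM per kb in each family, none was past the threshold in edgeR, beside 4.01% of all genes tested. The log2 fold change of *H2ac15* was −0.40 with a standard error of 1.08, and that of *Hist1h2an* was 0.35 with 1.21. Without N215 these became 2.17 and 2.74, and the lowest edgeR adjusted p over the alternatives was 0.127 and 0.138. For *H1f2* the log2 fold change was −0.08 with a standard error of 0.32, the smallest of the linker histones, with 65.2 to 307 CPM in KO and 104 to 386 CPM in WT. *H1f4* had 0.41 with a standard error of 0.49, and *H1f1* 0.90 with 0.82. The log2 fold changes were 0.44 for *H2ac10*, 0.59 for *H2bc18*, −0.48 for *H2bc15* and −0.17 for *H2bc8*. They were 0.39 for *H3c7*, 0.55 for *H3c13*, −0.06 for *H3c3*, 0.38 for *H4c8*, 0.61 for *H4c12* and 0.26 for *H4c6*.

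Of the 8 tested replacement genes, 7 had a log2 fold change below 0 and *H2aj* had 0.10, with a median of −0.40 beside 0.10 over all genes tested. None was past the threshold in edgeR, and none had an unadjusted p under 0.05. The median stayed between −0.55 and −0.31 over 27 alternative settings. The summed level of the 10 replacement genes was 378 to 922 CPM in KO (median 625.05) and 642 to 1116 CPM in WT (median 930). On the CPM scale 4 KO tumors (Montana, Oregon, Medusa and Ohio) were below every WT tumor, and this set depended on the scaling. As a share of all counts, the lowest WT tumor was the pelvis tumor of N43 (12798 of 16340727). Massa (380 of 1109487), Grilka (687 of 1812818) and Prince (8001 of 15059640) were also below it, and Ohio (6278 of 7761206) was above it. The genes of H3.3, which is placed at active genes and other regions outside replication, were the most abundant. *H3f3a* had 109 to 230 CPM in KO (median 140) and 145 to 266 CPM in WT (median 206), and 5 of the 8 KO tumors were below every WT tumor on the CPM scale. Its log2 fold change was −0.41 ± 0.22 (SE) at an adjusted p of 0.272 in edgeR.

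*H3f3b* had 81.9 to 453 CPM in KO (median 150) and 197 to 374 CPM in WT (median 305). Of the KO tumors, 5 were below every WT tumor on the CPM scale and Massa was above every one. The place of Massa rested on its TMM factor of 0.409. As a share of all counts, Massa (203 of 1109487) was below the spine tumor of N43 (3582 of 15755475), the lowest of WT. The log2 fold change was −0.59 ± 0.34 (SE) at an adjusted p of 0.302 in edgeR. Without Massa and Grilka, when 5.36% of all genes tested were called, it was −1.11 with an edgeR adjusted p of 0.0368. The ratio of *H3f3b* to *H3f3a* was 0.710 to 2.31 in KO (median 1.03) and 0.964 to 1.56 in WT (median 1.43), although both genes encode the same protein. In WT 7 of the 8 ratios lay between 1.37 and 1.56, and the spine tumor of N43 was at 0.964. *H3f3a* overlaps the antisense gene *H3f3aos*, and since the strand of the libraries is not stated, reads of the pair cannot be told apart.

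*H1f0*, the replacement linker histone known from cells that have stopped dividing, had 26.1 to 235 CPM in KO (median 76.0) and 56.7 to 271 CPM in WT (median 181). Its log2 fold change was −0.82 ± 0.40 (SE) at an adjusted p of 0.227 in edgeR. The highest tumor was N215 (271 CPM), which also had the highest replication-dependent sum, and the highest in KO was Grilka (235 CPM). The lowest was Zelda, which had the second highest replication-dependent sum. The ratio of *H1f1* to *H1f5* over *H1f0* was 32.3 in Zelda, against 1.30 to 7.24 in the other KO tumors and 1.08 to 4.49 in WT. *H1f10*, another linker histone outside the clusters, had 0.664 to 22.8 CPM in KO (median 3.92) and 5.49 to 77.4 CPM in WT (median 15.6), and a log2 fold change of −1.44 ± 0.70 (SE) at an adjusted p of 0.230 in edgeR.

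The H2A variants differed less. *H2az1*, one of the genes of H2A.Z, had 34.4 to 168 CPM in KO (median 71.7) and 51.8 to 176 CPM in WT (median 80.0), and a log2 fold change of −0.29. *H2az2*, the other, had 5.37 to 24.5 CPM in KO (median 13.3) and 13.5 to 24.4 CPM in WT (median 18.9), and a log2 fold change of −0.32. *H2ax*, the variant phosphorylated at DNA breaks, had 11.2 to 93.5 CPM in KO (median 23.7) and 14.6 to 159 CPM in WT (median 26.9), and a log2 fold change of −0.38. Its highest tumors were N215 and Zelda, the same 2 that led the replication-dependent sum, and it is the replacement gene whose stem-loop is printed above. *H2aj* had 7.55 to 40.3 CPM in KO (median 18.2) and 11.04 to 28.1 CPM in WT (median 21.04). The sign of *H2ax*, *H2az1* and *H2aj* changed under at least 1 alternative setting.

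The balance of the classes was read as the replication-dependent sum over the replacement sum in each tumor. This ratio was 0.890 to 4.15 in KO (median 2.03) and 0.681 to 3.44 in WT (median 1.06). The WT tumors other than N215 (3.44) reached at most 1.25. Zelda (4.15), Medusa (3.57), Ohio (2.89), Grilka (2.45), Oregon (1.61) and Massa (1.27) were above these, while Montana (1.15) and Prince (0.890) lay among them. For H3, the ratio of the replication-dependent sum to H3.3 mRNA was 0.117 to 1.32 in KO and 0.141 to 1.53 in WT. It was above 1 in Medusa, Ohio, Zelda and N215 and at most 0.761 elsewhere.

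Genes that make and handle histone mRNA and protein came from lists of 21 regulators and 20 chaperones. All 41 were tested, and 3 rose in KO in edgeR, beside 4.01% of all genes tested. In limma-voom with mouse as a random effect, which called 0.11% of all genes, none of the 3 was past the threshold (adjusted p from 0.379 to 0.521). An unadjusted p under 0.05 was found for 4, beside 23% of all genes. Of the 41, 29 had a log2 fold change above 0, beside 55.9% of all genes, with a median of 0.21. *Anp32e*, a chaperone that removes H2A.Z from nucleosomes, had 31.5 to 578 CPM in KO (median 88.9) and 22.2 to 68.4 CPM in WT (median 32.2). Of the KO tumors, 6 were above every WT tumor, and the log2 fold change was 2.06 ± 0.50 (SE) at an adjusted p of 0.0322 in edgeR. Without Ohio, the highest at 578 CPM, it was 1.37 and no longer past the threshold in edgeR. *Nap1l4*, of the nucleosome assembly protein family, had 56.4 to 112 CPM in KO (median 77.3) and 31.05 to 57.3 CPM in WT (median 49.0), with 7 KO tumors above every WT tumor. Its log2 fold change was 0.75 ± 0.19 (SE) at an adjusted p of 0.0369 in edgeR. *Srrt*, which encodes the cap-binding partner ARS2 that takes part in forming the 3′ ends of histone mRNA, had 95.9 to 381 CPM in KO (median 118) and 57.0 to 135 CPM in WT (median 67.2). Its log2 fold change was 1.27 ± 0.34 (SE) at an adjusted p of 0.0431 in edgeR. None of the 3 was past the threshold with counts summed per mouse, with the ribosomal RNA share as a covariate or without the 4 tumors of N42. Those settings, in that order, called only 10, 7 and 8 genes of the whole table.

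The central regulators of histone genes were not past the threshold in edgeR. *Slbp*, the stem-loop binding protein, had 8.67 to 64.0 CPM in KO (median 30.5) and 17.1 to 25.6 CPM in WT (median 19.5), and a log2 fold change of 0.62 at an adjusted p of 0.289 in edgeR. Its KO values lay on both sides of WT, with Medusa, Ohio, Grilka and Zelda above every WT tumor and Montana and Oregon below. The log2 fold changes were −0.43 for *Npat*, the activator of histone gene transcription, and 0.18 for *Casp8ap2*, a factor of the histone locus body. They were 0.71 for *Chaf1a*, of the assembly factor that works at replication forks, and 0.45 for *Asf1b*, a chaperone of H3 and H4. Of the 25 proliferation genes none was past the threshold in edgeR and none had an unadjusted p under 0.05, with a median log2 fold change of 0.08. *Mki67* had 4.34 to 1460 CPM in KO and 61.7 to 298 CPM in WT, and its log2 fold change was 1.503 at an adjusted p of 0.335 in edgeR. The values were −0.22 for *Pcna* and 0.31 for *Mcm2*.

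The spread over the tumors was larger for replication-dependent than for replacement genes as a description. The median SD of log2 CPM over the 16 tumors was 1.51 for the 56 replication-dependent genes, 0.71 for the 8 replacement genes, 1.71 for the 25 proliferation genes and 0.97 over all genes tested. Within KO the median SD of the replication-dependent genes was 1.86 and within WT 0.96, against 1.11 and 0.51 over all genes tested, and 52 of the 56 were more spread in KO. Shallow libraries in KO and 4 WT tumors of 1 mouse bear on this contrast, which was not tested. The H4 genes had the lowest median SD of the 5 families, 1.09, and the H2A genes the highest, 1.87.

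Among replication-dependent genes the spread went with the annotated 3′ end, a feature looked at after the values were seen. The 18 tested genes with 300 or more annotated bases after the stop codon had a median SD of 1.13, and the 38 with fewer had 1.70, with overlapping ranges (0.57 to 2.02 and 0.75 to 2.98). Of the 8 least variable genes, *H2bc4*, *H1f2*, *H4c4*, *H2bc6*, *H4c8*, *H4c3*, *H4c6* and *H4c14*, 6 have such a long 3′ end. Of the 8 most variable, *Hist1h2an*, *H2ac15*, *H1f5*, *H2bc3*, *Hist1h4m*, *H2bc9*, *H2bc15* and *H2bc13*, 1 has it. In Massa, the shallowest library, the 8 most variable had 0 counts except *H2bc15* with 1, and the 8 least variable had 10 to 61 counts. Count level, family and annotated 3′ end were not separated. The counts do not show where in a gene the reads lie, so use of these long ends was not measured.

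**Figure D5:**
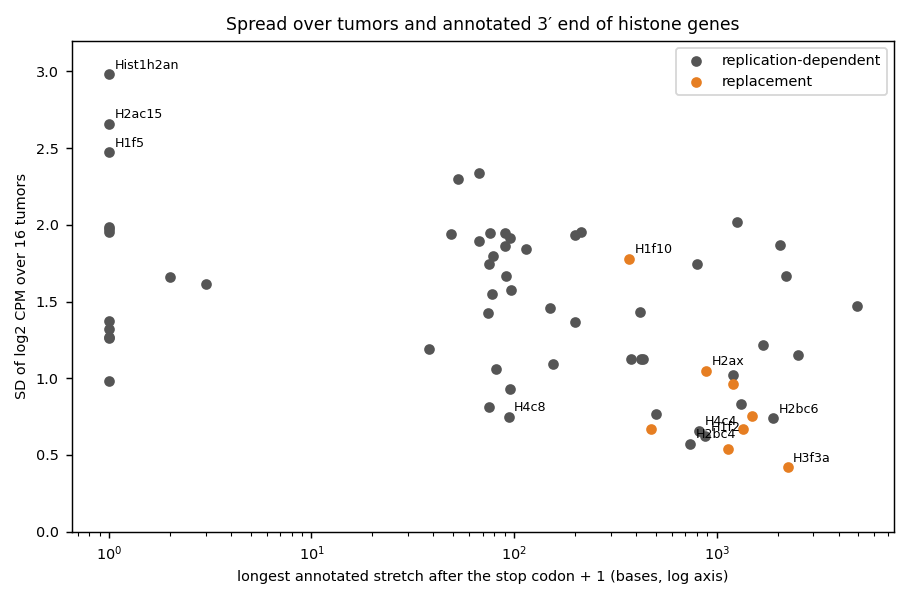
SD of log2 CPM over the 16 tumors against the longest annotated stretch after the stop codon (log axis, 1 base added) for the 56 replication-dependent and 8 replacement histone genes. *Hist1h2an*, with no annotated 3′ end, is at 2.98, and *H3f3a* is lowest, at 0.42.

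Reads of 50 bases limit how well near-identical genes can be told apart. The median replication-dependent gene shared 54.5% of its 50-base windows with another annotated gene, and 32 of the 62 shared more than 50%. Genes that overlap the same locus are counted too, so these shares are not of paralogs alone. *H2bc18*, for one, shared 100% of its windows but none with another of the 73 histone genes. The median was 73.0% for H2A, 60.4% for H3, 49.7% for H2B, 39.5% for H4 and 2.30% for H1. Replacement genes shared a median of 6.95%. When the genes that share windows were summed, the 12 H4 genes so joined had a log2 fold change of 0.38 at an adjusted p of 0.551 in edgeR, and the 11 H3 genes 0.17 at an adjusted p of 0.908 in edgeR. The unit of the 16 replication-dependent H2A genes with *H2aj* and *H2ax* had −0.16 at an adjusted p of 0.905 in edgeR. The unit of 14 H2B genes with *H1f2*, *H1f3* and *H1f4* had 0.10 at an adjusted p of 0.914 in edgeR. Another annotated gene overlaps 21 of the 62 replication-dependent genes, among them *H1f4*, which overlaps *H2bc6*.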

How the data were processed

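RNA of 16 tumors was sequenced for 50 cycles from one end after removal of ribosomal RNA (TruSeq, RiboZero). According to the paper and the submitters' processing notes, the authors aligned reads to mm10 and Ensembl transcript models with Novoalign 2.08.01, allowed multiple alignments per read, kept the best, and counted reads per gene before DESeq2 1.26.0. They deposited these raw counts, without normalization, which are the values used. Whether counting used strand is not given in the sources used here.

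Groups came from the genotype labels. No 2 libraries of a group had the same counts. CPM were computed from TMM-normalized library sizes in edgeR 4.0.16 (R 4.3.3), and log2 CPM with a prior count of 2. The comparison used edgeR's quasi-likelihood test after filterByExpr (minimum count 10, minimum total 15). DESeq2 1.42.0 and limma 3.58.1 (voom, mouse as random effect) were alternatives. The pipeline was tested on simulated data. Annotation was GENCODE vM21, later than the authors' models. Of the genes in the table, 24997 were found in it, with all 73 histone genes. Python 3.11.15 was used for the sequence searches.

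P-values measure the spread between tumors, of which 8 WT tumors share 4 mice. The members and gene lists were chosen with earlier results of these data known. Named genes were the 3 tested replication-dependent genes of each family with the highest mean CPM per kb, in each direction the 5 with the smallest p, each tested replacement gene, list members past the threshold, *Slbp*, *Npat*, *Casp8ap2*, *Chaf1a*, *Asf1b*, *Mki67*, *Pcna* and *Mcm2*. Other genes were named after their values were seen. The lists of erythroid, liver, lymphoid and macrophage markers were also scored, with summed levels of 1.48 to 1571, 20.1 to 1994, 14.5 to 1459 and 297 to 2032 CPM in KO, and 6.01 to 495, 14.6 to 283, 65.0 to 325 and 688 to 2560 CPM in WT. Of the 10 macrophage genes 7 fell in KO in edgeR (4.01% of all genes called), and 0 were past the threshold in limma-voom (0.11% called; lowest adjusted p 0.243). Alternatives were other normalizations, no filter, other tools, counts per mouse, left-out tumors and covariates.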

Additional observations from a re-analysis of the deposited data

Results flagged for a closer look

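Within each group of 8 tumors, the gap of the highest or lowest tumor to its neighbor was divided by the range of the group on the log2 scale, for 80 groups. A rate by chance of about 1 in 20 groups would hold only for independent groups with normal values. Here 11 of 80 (13.8%) were flagged, 10 of them for the N215 tumor in WT, and no test was made against that rate. These groups are not independent, since the sums hold the genes and the genes come from the same tumors.

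The N215 tumor stood apart upward in the replication-dependent sum (ratio 0.581, 3841 CPM against 1338 CPM in the next WT tumor), the H2A sum (0.658, 745 against 120 CPM), the H2B sum (0.595, 551 against 216 CPM) and the H3 sum (0.568, 768 against 194 CPM). The H1 and H4 sums were not flagged. Among single genes it stood apart in *H2ac15* (0.761, 378 against 17.0 CPM), *Hist1h2an* (0.704, 110 against 5.96 CPM), *H3c1* (0.674, 50.5 against 8.59 CPM), *H2bc15* (0.619, 70.1 against 17.7 CPM), *H3c7* (0.598, 273 against 49.2 CPM) and *H4f16* (0.590, 55.8 against 14.8 CPM). N215 was the only tumor of its mouse. The 10 osteoblast markers summed to 4853 CPM in N215, 2910 CPM in N25 and 24356 to 84108 CPM in the other WT tumors. Of these markers *Sp7* went the other way, with 147 CPM in N215, its highest WT level. Whether this bears on the histone levels was not tested.

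Among the KO tumors Grilka stood apart downward in *H2aw* (0.589), with 0 counts against 0.845 CPM in the next tumor, where 3 counts in Grilka equal 4.03 CPM.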

How the results depend on the processing

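No paired analysis was possible because replicate numbers are absent from the labels and no mouse gave both KO and WT tumors. No replication-dependent gene was past the threshold under 25 of 28 alternatives; there were 3 with DESeq2 (*H2bc4*, *Hist1h4n* and *Hist1h4m*, of 12.5% of genes called), 2 with the proliferation score as a covariate (*Hist1h4n* and *Hist1h4m*, of 6.08%) and, leaving out 1 tumor at a time, 0 to 2, with 2 without N215 (*H4c1* and *H4f16*, of 5.83%). Of the replacement genes 1 (*H3f3b*) was past it without Massa and Grilka (5.36% of genes called), and none under the other 26 alternatives. The cause was not tested. Of the regulators and chaperones 3 were past the threshold (4.01% of all genes called), against 4 with DESeq2 (12.5% called). There was 1 without the filter (679 of 25054 genes called) or without Massa and Grilka (5.36% called). The count was 0 with limma-voom, with counts summed per mouse, without the N42 tumors or with the ribosomal RNA share as a covariate. Under those settings, in that order, 17, 10, 8 and 7 genes of the whole table were called. Leaving out 1 tumor at a time gave 0 to 3: there were 0 without any single WT tumor of N42 or N43, and 1 without Medusa, Ohio, Grilka or Oregon. Over the whole table these fits called 252 to 371 genes and 329 to 550 genes, against 618 with all the tumors. Proliferation genes had 0 calls under the 26 alternatives run.

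The median log2 fold change of the replication-dependent genes was below 0 under 7 of 27 alternatives, among them limma-voom (−0.46), counts summed per mouse (−0.21), without the N42 tumors (−0.16) and with the ribosomal RNA share (−0.06). Leaving out 1 tumor at a time, it ranged from −0.23 without Zelda to 0.78 without N215. By share of counts in place of CPM, an alternative added after seeing the data, Massa moved from 7th to 14th and Grilka from 3rd to 9th in the order of the replication-dependent sum. That of the replacement genes was below 0 under all 27. The median over all genes tested was 0.10, and −0.06 with limma-voom. Depth limits low genes in Massa and Grilka, and paralogs limit the split between near-identical genes.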

Other observations

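The linker histone mix differed between tumors. *H1f2* took 22.5% to 81.1% of the counts on *H1f1* to *H1f5* in KO (median 35.5%) and 34.3% to 64.2% in WT (median 47.2%). The highest share was in Montana and the lowest in Grilka. *H1f6*, the linker histone known from the testis, was at 0 to 3.38 CPM in KO and 0.440 to 5.25 CPM in WT, and its log2 fold change was −0.48 at an adjusted p of 0.765 in edgeR. The ratio of *H2az1* to *H2az2*, which encode the forms of H2A.Z, had a median of 4.86 in KO, where it was lowest in Montana (1.47) and highest in Grilka, and was 2.86 to 8.99 in WT (median 4.17). No test was made of these ratios.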
